A study of Mus musculus with 9 samples.

Results

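The genes described here belong to antigen presentation by the major histocompatibility complex (MHC), and 10 were chosen by name of the 24318 genes in the deposited tables: the class I heavy chains H2-K1, H2-D1, H2-Q4 and H2-T23, the light chain B2m, the peptide loading genes Tap1, Tap2 and Tapbp, and the class II genes Cd74 and H2-Aa. The choice was made with earlier results of these data known, so counts of calls among the 10 are descriptions. All 10 were listed, and 9 passed the filter of a mean of at least 1 FPKM, with H2-Aa left out. FPKM is the number of sequenced fragments scaled to gene length and library size. The 9 polyA-selected mouse libraries formed 3 groups of 3, named SE-BDEV, CON-BDEV and Vehicle. SE-BDEV cells were given brain-derived extracellular vesicles named for status epilepticus (prolonged seizure), CON-BDEV cells vesicles named as control, and Vehicle cells none. The library names in the labels read EV Pilo for SE-BDEV, EV Saline for CON-BDEV and CON for Vehicle. Dose, time and the animals behind the vesicles are not given in the sources used here, and nothing says whether replicates were separate cultures, so p-values measure the library-to-library spread alone, possibly a technical one. The design text names BV2, a line of mouse microglia, while the label for the cell line names N2a, mouse neuroblastoma cells.

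MHC class I molecules show peptides from inside the cell to CD8 T cells. The heavy chain pairs with beta-2 microglobulin in the endoplasmic reticulum, where the TAP1-TAP2 transporter brings in peptides and tapasin (Tapbp) holds the empty molecule next to it. H2-K1 and H2-D1 encode the classical, highly variable heavy chains of the mouse, whereas H2-T23 encodes Qa-1, a non-classical chain read by receptors of NK and T cells, and H2-Q4 encodes a non-classical Qa-region chain. MHC class II molecules show peptides taken up from outside to CD4 T cells, and their chains are guided by the invariant chain, Cd74, which fills the groove until the endosome. Microglia are the resident macrophages of the brain and can carry both classes.

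Most markers of microglia and macrophages were present and most of neuroblastoma were not. Of 15 microglia and macrophage markers 13 had a mean of at least 1 FPKM, while Cx3cr1 (0.122 FPKM) and P2ry12 (0.0142 FPKM), genes of resting microglia in the brain, did not. The same level was reached by 2 of 14 neuroblastoma and neuron markers (Gata3 and Elavl4), with Th, Dbh, Mycn, Hand2 and Stmn2 listed at 0 in all 9 libraries. Of 12 dendritic and B cell markers, types that carry much class II, 2 reached that level, namely Itgax and Zbtb46, and none of 6 T and NK cell markers did. The summed FPKM of the dendritic and B cell list was 91.5 to 103 in SE-BDEV, 96.3 to 109 in CON-BDEV and 82.2 to 91.6 in Vehicle, nearly all of it Itgax, an integrin that macrophages also make. The microglial sum was 2953 to 3335 in SE-BDEV, 3011 to 3212 in CON-BDEV and 2927 to 3058 in Vehicle, the astrocyte sum 35.7 to 39.8, 36.9 to 40.5 and 44.2 to 45.2, and the neuroblastoma sum 8.07 to 8.40, 6.86 to 8.53 and 6.14 to 6.91 in the same order of groups. With SE-BDEV 3 of 13 tested microglial markers rose (Csf1r, Itgam and Adgre1) and 1 fell (Cd14), where 6.76% of all genes tested rose and 5.14% fell. With CON-BDEV 3 of 13 rose (Aif1, Lyz2 and Adgre1) and 1 fell (Cd14), where 3.81% rose and 1.86% fell. With 1 library left out, Itgam passed in 1 of 6 fits with SE-BDEV, and with CON-BDEV Lyz2 passed in 1 of 6, Cd14 in 2 of 6, and Aif1 and Adgre1 in 4 of 6 each. Of the markers of other types, Gata3, Elavl4 (both tested genes of the neuroblastoma list) and Flt1 (endothelial list) rose with SE-BDEV. Aldoc (astrocyte list) and Cnp (oligodendrocyte list) fell with SE-BDEV, and Aldoc fell with CON-BDEV. Only 1 of 6 astrocyte genes (Aldoc) and 1 of 6 endothelial genes (Flt1) had a mean of at least 1 FPKM. That level was reached by 2 of 6 oligodendrocyte genes, Mbp and Cnp. Aldoc and Flt1 thus made up nearly all of the astrocyte and endothelial sums. With 1 library left out, Elavl4 passed in 0 of 6 fits, Gata3 and Flt1 in 3 of 6 each, Aldoc and Cnp in 6 of 6 with SE-BDEV, and Aldoc in 2 of 6 with CON-BDEV. The oligodendrocyte sum was 11.8 to 12.5, 10.8 to 13.4 and 13.9 to 14.1, the endothelial sum 42.5 to 47.1, 35.8 to 44.2 and 35.2 to 40.3, and the T and NK cell sum 0.0893 to 0.175, 0.0586 to 0.162 and 0.101 to 0.193. The part of these shifts in the results was not tested, and in bulk RNA fewer cells of a type and less RNA per cell cannot be told apart. Depth was estimated at 28900000 (CON-BDEV replicate 2) to 33451000 (Vehicle replicate 2) fragments. If the longest annotated transcript is the one present, at least 1767 fragments lie behind every value of the 9 members, a counting error of at most 2.38%. A shorter transcript would mean fewer fragments and a larger error.

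The 4 heavy chain genes lie in the MHC on chromosome 17, at 34132957 to 34137278 for H2-K1, 35400039 to 35462354 for H2-D1, 35516562 to 35521619 for H2-Q4 and 36131449 to 36175119 for H2-T23 (mm9, deposited loci). Tapbp (34056423 to 34066235), Tap1 (34324501 to 34334170), Tap2 (34341424 to 34353266) and H2-Aa (34419696 to 34424716) lie on the same chromosome, and B2m on chromosome 2 (121945844 to 122011925). Of the heavy chains, 3 carry near copies of the same promoter. Over the RefSeq windows of GRCm38.p6, 250 bases before to 50 after the annotated start (most downstream start for H2-K1), the windows of H2-K1 and H2-D1 aligned with 87.8% identity (222 of 253 aligned bases), those of H2-K1 and H2-Q4 with 84.4% (206 of 244) and those of H2-D1 and H2-Q4 with 83.1% (236 of 284). The 200 bases upstream of each start are shown because, of the genes that share them, H2-K1 and H2-Q4 fell with SE-BDEV and H2-D1 rose with CON-BDEV, as given below. They lie at chr17:34000334-34000533 on the minus strand for H2-K1, chr17:35262894-35263093 on the plus strand for H2-D1, chr17:35379417-35379616 on the plus strand for H2-Q4 and chr17:36032702-36032901 on the minus strand for H2-T23. Capitals mark matches on either strand to the enhancer A motif (NF-kB type, seen as GGGGATTCCC in H2-K1), TTTCNCTT (interferon response type), TGACG (CRE core), CCAAT (Y box) and TATAAA, which overlap in no place of these stretches except a pair of shifted enhancer A matches in H2-Q4.
H2-K1: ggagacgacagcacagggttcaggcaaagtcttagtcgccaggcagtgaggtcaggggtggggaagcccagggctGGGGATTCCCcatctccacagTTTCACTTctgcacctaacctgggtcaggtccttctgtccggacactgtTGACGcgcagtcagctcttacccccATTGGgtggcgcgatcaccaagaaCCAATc
H2-D1: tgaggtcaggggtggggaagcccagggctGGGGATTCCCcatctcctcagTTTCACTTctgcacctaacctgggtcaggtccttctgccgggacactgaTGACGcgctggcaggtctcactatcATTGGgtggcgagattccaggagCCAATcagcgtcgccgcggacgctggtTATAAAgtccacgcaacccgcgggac
H2-Q4: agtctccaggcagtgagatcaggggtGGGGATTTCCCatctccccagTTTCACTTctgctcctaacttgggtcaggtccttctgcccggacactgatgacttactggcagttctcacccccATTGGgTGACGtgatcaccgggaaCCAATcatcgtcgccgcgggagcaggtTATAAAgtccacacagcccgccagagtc
H2-T23: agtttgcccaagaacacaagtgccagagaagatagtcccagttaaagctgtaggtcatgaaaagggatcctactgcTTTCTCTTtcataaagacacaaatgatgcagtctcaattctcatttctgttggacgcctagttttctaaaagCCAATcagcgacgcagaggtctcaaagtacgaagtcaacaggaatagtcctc
H2-K1, H2-D1 and H2-Q4 each held the first 4 of these elements upstream of the start, in the same order except that TGACG lies before ATTGG in H2-K1 and H2-D1 and after it in H2-Q4. TATAAA lay 26 and 28 bases upstream in H2-D1 and H2-Q4 and, past the printed stretch, at position 22 after the start in H2-K1. The other H2-K1 elements were also further downstream relative to the annotated start than those of H2-D1. Enhancer A was at -125 in H2-K1 and -171 in H2-D1, TGACG at -55 and -101, and CCAAT at -6 and -53. These positions depend on the annotated start. H2-T23 held a TTTCNCTT match and a CCAAT match and had no enhancer A, TGACG or TATAAA match in its window. Among 32851 promoter windows, 4.79% held enhancer A, 7.67% TTTCNCTT, 20.8% TGACG, 37.4% CCAAT and 13.6% TATAAA. Of the 8 members with a window in the table, 5 held enhancer A, 5 TTTCNCTT, 6 TGACG, 8 CCAAT and 4 TATAAA, while the canonical interferon response element was in 2, H2-T23 (where it overlaps TTTCNCTT) and B2m (3.44% of all windows). A match is a description of the letters only.

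Levels spanned a wide range within each library and kept nearly the same order in all. B2m had the highest mean over the 9 libraries, 1182 FPKM, which placed it 84th of the 24316 genes whose estimates did not fail. H2-D1 followed with 324 FPKM, Cd74 with 202 FPKM, H2-K1 with 143 FPKM and Tapbp with 53.7 FPKM, and each was above the next in 9 of 9 libraries with no overlap of their ranges. H2-T23 (33.5 FPKM) and H2-Q4 (26.3 FPKM) did overlap, with H2-T23 higher in 8 of 9 libraries, and so did Tap2 (19.8 FPKM) and Tap1 (17.1 FPKM), with Tap2 higher in 9 of 9. H2-Aa, the class II alpha chain, stood far below at 0.0120 FPKM.

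**Figure D1:**
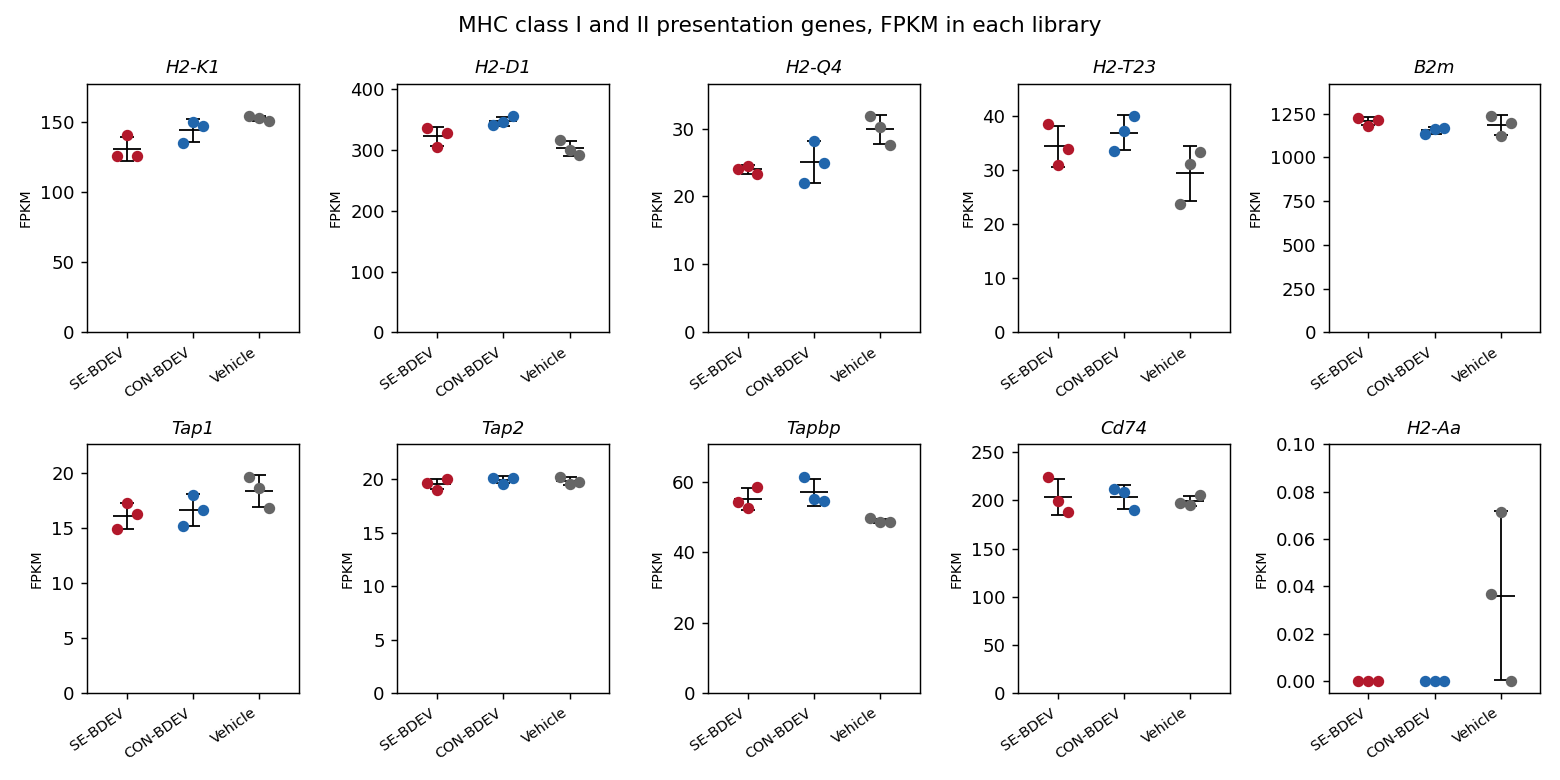
FPKM of the 10 genes in each library of SE-BDEV, CON-BDEV and Vehicle (vertical axes in FPKM from 0, each with its own scale), with bars for the mean ± SD of 3 libraries. H2-Q4 and H2-K1 lie lower and Tapbp higher in all SE-BDEV libraries than in all Vehicle libraries, and the H2-Aa axis ends at 0.1 FPKM.

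SE-BDEV against Vehicle asked what vesicles named for status epilepticus did to the cells. Of the 9 members tested, 2 fell, H2-Q4 and H2-K1, and 1 rose, Tapbp, with adjusted p from limma on log2(FPKM + 1). The background was 11.9% of 10535 genes called in either direction, 5.14% lower and 6.76% higher. The median log2 fold change of the 9 was 0.03, against -0.0008 over all genes tested, and the median absolute one 0.17, against 0.08. Groups did not overlap for 3 of the 9, against 32.8% of all genes (16.5% higher, 16.3% lower), and an unadjusted p was under 0.05 for 4 of the 9, against 27.4%.

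H2-Q4 was listed at 24.03, 24.5 and 23.4 FPKM in SE-BDEV libraries, against 31.8, 30.3 and 27.6 FPKM in Vehicle libraries. All SE-BDEV libraries lay below all Vehicle libraries, and they also lay closer together. The log2 fold change was -0.30 ± 0.05 (SE), so that the level fell by 19.0% on the FPKM + 1 scale, with a limma adjusted p of 0.00836. H2-Q4 was the one member whose call held without each of the 6 libraries in turn (highest adjusted p 0.0398, without Vehicle replicate 2). In the authors' deposited table H2-Q4 was also the one member with a significant mark, at a log2 fold change of -0.32 and q of 0.0192. H2-K1 was at 126, 141 and 126 FPKM in SE-BDEV, against 155, 153 and 151 FPKM in Vehicle. Again no library of one group reached the other, and SE-BDEV replicate 2 was nearest to Vehicle. Its log2 fold change was -0.22 ± 0.05 (SE; limma adjusted p of 0.0166), so that the level fell by 14.3%, but the adjusted p was 0.0724 without Vehicle replicate 1, 0.0581 without Vehicle replicate 2 and 0.0546 with no filter on low values, and the q of the authors' deposited table was 0.109.

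The other heavy chains did not pass, and their fitted log2 fold changes were above 0. H2-D1 was at 336, 305 and 328 FPKM in SE-BDEV, against 316, 301 and 292 FPKM in Vehicle, so that the groups overlapped (log2 fold change 0.09 ± 0.05, limma adjusted p of 0.239). The deposited locus of H2-D1 is shared with H2-L, H2-Q1 and LOC547349, so fragments of these genes may have been divided between them. H2-T23 was at 38.5, 30.9 and 33.8 FPKM in SE-BDEV, against 23.7, 31.0 and 33.3 FPKM in Vehicle. The groups overlapped, with Vehicle replicate 1 well below the other libraries, and the log2 fold change was 0.23 ± 0.12 (limma adjusted p of 0.232). Its locus is shared with H2-T24 and A930015D03Rik. B2m, the common light chain, was at 1225, 1182 and 1214 FPKM in SE-BDEV, against 1236, 1124 and 1195 FPKM in Vehicle, a log2 fold change of 0.03 with a 95% interval of -0.07 to 0.12 (limma adjusted p of 0.710).

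Of the loading genes, Tapbp was at 54.3, 52.6 and 58.6 FPKM in SE-BDEV, against 49.6, 48.6 and 48.6 FPKM in Vehicle. Every SE-BDEV library was above every Vehicle library. The log2 fold change was 0.17 ± 0.05 (SE; limma adjusted p of 0.0425), a level 12.4% higher, and the authors' deposited table gave a q of 0.318. This call was lost without SE-BDEV replicate 1 (0.0658), SE-BDEV replicate 3 (0.0714) and Vehicle replicates 1, 2 and 3 (0.109, 0.125 and 0.111). It was also lost with no filter (0.0822), without a trend on the mean in the fit (0.0724), and with all 9 libraries in 1 fit. Tap1 was at 14.9, 17.3 and 16.2 FPKM in SE-BDEV, against 19.7, 18.7 and 16.8 FPKM in Vehicle, with overlapping groups and a log2 fold change of -0.18 ± 0.07 (limma adjusted p of 0.126). Tap2 was at 19.7, 19.0 and 20.0 FPKM in SE-BDEV, against 20.2, 19.5 and 19.8 FPKM in Vehicle. Its log2 fold change of -0.02 had a 95% interval of -0.11 to 0.07 (limma adjusted p of 0.792).

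CON-BDEV against Vehicle asked the same of control vesicles. Of the 9 members tested, 2 rose, H2-D1 and Tapbp, and 0 fell, where the background was 5.67% of 10535 genes in either direction, 3.81% higher and 1.86% lower. Of all calls 67.2% were higher, and 54.7% after quantile normalization, where neither member passed. The median log2 fold change of the 9 was 0.01 and that of all genes tested 0.01, and the median absolute one 0.14, against 0.08. Groups did not overlap for 4 of the 9, against 29.3% of all genes (16.6% higher, 12.7% lower), and an unadjusted p was under 0.05 for 4 of the 9, against 23.5%. The Vehicle libraries are the same as in the SE-BDEV comparison, so the results of both share their error.

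H2-D1 was at 341, 345 and 356 FPKM in CON-BDEV, against 316, 301 and 292 FPKM in Vehicle. The groups did not overlap. The log2 fold change was 0.20 ± 0.04 (SE; limma adjusted p of 0.0320), a level 14.6% higher. Tapbp was at 61.4, 55.1 and 54.4 FPKM in CON-BDEV, against 49.6, 48.6 and 48.6 FPKM in Vehicle, with CON-BDEV replicate 1 highest and no overlap. Its log2 fold change was 0.21 ± 0.05 (SE; limma adjusted p of 0.0479). The authors' deposited table gave q of 0.247 for H2-D1 and 0.179 for Tapbp. Both calls were lost without CON-BDEV replicate 3 (limma adjusted p of 0.106 for H2-D1 and 0.0787 for Tapbp), Vehicle replicate 1 (0.0683 and 0.148), Vehicle replicate 2 (0.123 and 0.159) and Vehicle replicate 3 (0.120 and 0.145), in the same order of genes. They were also lost with no filter (0.0773 and 0.103) and after quantile normalization (0.108 and 0.0701).

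H2-K1 was at 135, 151 and 147 FPKM in CON-BDEV, against 155, 153 and 151 FPKM in Vehicle. The CON-BDEV libraries lay below the Vehicle libraries, CON-BDEV replicate 2 by less than 1 FPKM, and the log2 fold change was -0.08 ± 0.05 (limma adjusted p of 0.315). H2-Q4 was at 22.04, 28.2 and 25.0 FPKM in CON-BDEV, against 31.8, 30.3 and 27.6 FPKM in Vehicle, overlapping through CON-BDEV replicate 2, with a log2 fold change of -0.25 ± 0.09 (limma adjusted p of 0.126, and 0.0329 without CON-BDEV replicate 2). H2-T23 was at 33.4, 37.2 and 39.9 FPKM in CON-BDEV, against 23.7, 31.0 and 33.3 FPKM in Vehicle. The groups just failed to overlap, and the log2 fold change of 0.33 ± 0.11 had a limma adjusted p of 0.126.

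Among the remaining members, B2m was at 1132, 1160.3 and 1169 FPKM in CON-BDEV, against 1236, 1124 and 1195 FPKM in Vehicle, a log2 fold change of -0.04 with a 95% interval of -0.14 to 0.06. Tap1 was at 15.2, 18.05 and 16.7 FPKM in CON-BDEV, against 19.7, 18.7 and 16.8 FPKM in Vehicle (log2 fold change -0.14 ± 0.07, limma adjusted p of 0.304). Tap2 was at 20.1, 19.5 and 20.1 FPKM in CON-BDEV, against 20.2, 19.5 and 19.8 FPKM in Vehicle (log2 fold change 0.01, 95% interval -0.09 to 0.11). Groups overlapped for all 3 of these genes. The locus listed for B2m is shared with Patl2 and Trim69, which are other genes.

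**Figure D2:**
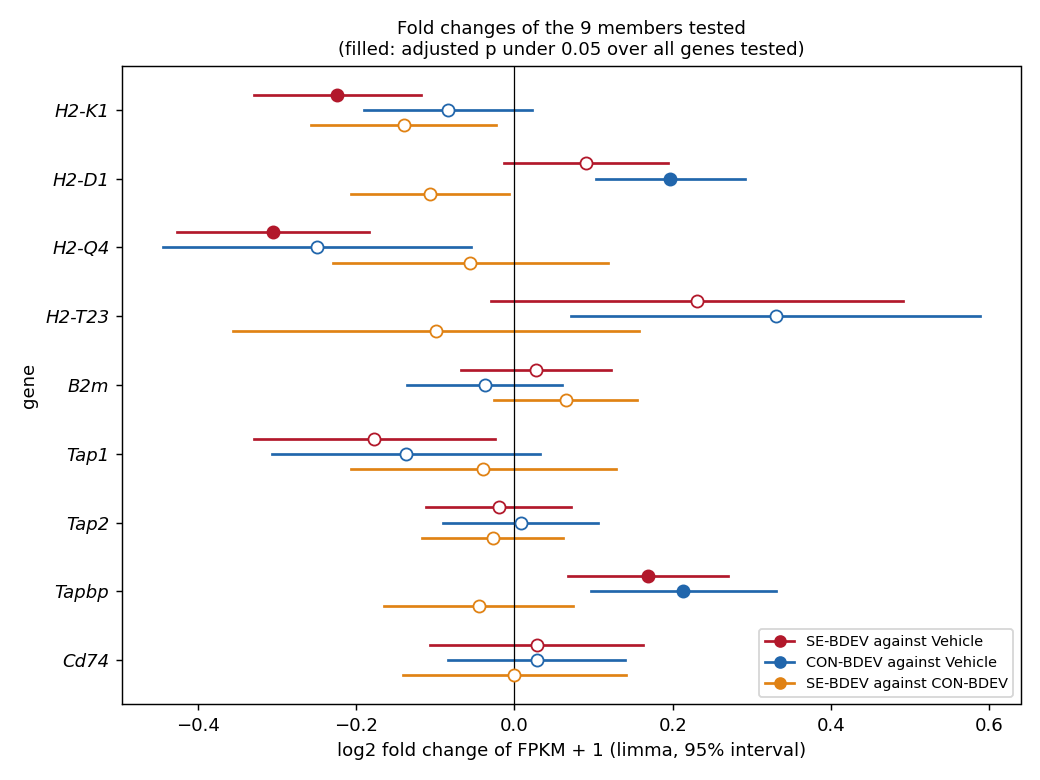
Log2 fold change of FPKM + 1 (horizontal axis) for the 9 members tested (vertical axis) in the 3 comparisons, with 95% intervals from limma before adjustment for many genes. Filled points passed an adjusted p of 0.05: H2-K1, H2-Q4 and Tapbp for SE-BDEV against Vehicle, H2-D1 and Tapbp for CON-BDEV against Vehicle, and 0 for SE-BDEV against CON-BDEV.

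The first digit of the library name in the labels, 1 or 2, divides the libraries of each group, and what it stands for is not given in the sources used here. Among libraries with digit 1 (1 SE-BDEV, 1 CON-BDEV and 2 Vehicle) the difference of SE-BDEV from Vehicle in mean log2(FPKM + 1) was -0.36 for H2-Q4, -0.29 for H2-K1 and 0.14 for Tapbp, and among those with digit 2 (2, 2 and 1) it was -0.20, -0.18 and 0.19. For CON-BDEV from Vehicle the difference was 0.14 for H2-D1 and 0.32 for Tapbp with digit 1, and 0.26 and 0.17 with digit 2. For H2-Q4 in CON-BDEV it was -0.48 with digit 1 and -0.05 with digit 2. H2-T23 differed by 0.49 between SE-BDEV and Vehicle with digit 1 and by -0.04 with digit 2. With the digit as a block in the fit, H2-Q4 and H2-K1 passed in SE-BDEV and Tapbp did not (limma adjusted p of 0.0738), while in CON-BDEV Tapbp passed and H2-D1 did not (0.0628).

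The balance between both classical heavy chains is shown as the ratio of their FPKM, chosen after the values were seen and given with no test. H2-K1 over H2-D1 was 0.375, 0.462 and 0.385 in SE-BDEV, 0.397, 0.436 and 0.414 in CON-BDEV, and 0.489, 0.509 and 0.517 in Vehicle. The ratio was lower in all 6 libraries with vesicles than in all 3 Vehicle libraries, and SE-BDEV and CON-BDEV overlapped. The means were 0.407 ± 0.048 (SD) in SE-BDEV, 0.415 ± 0.020 in CON-BDEV and 0.505 ± 0.014 in Vehicle (n = 3 each). H2-K1, H2-D1, H2-Q4 and H2-T23 are paralogs, and the way fragments shared between such genes were assigned is not given in the sources used here, so the split between them is uncertain.

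**Figure D3:**
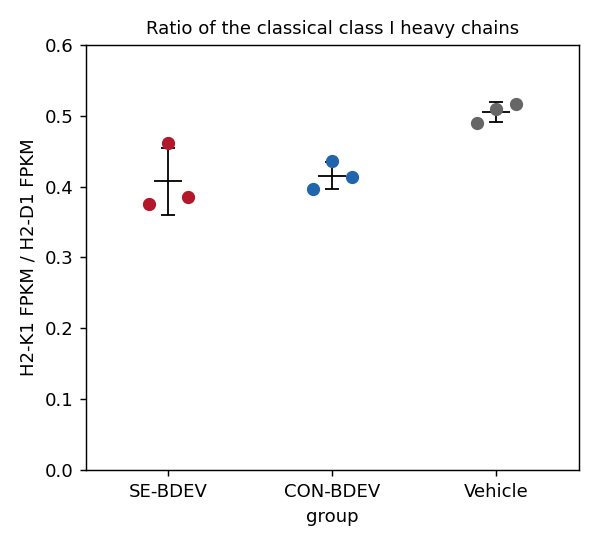
Ratio of H2-K1 to H2-D1 FPKM (vertical axis, from 0, no unit) in each library by group, with bars for the mean ± SD of 3 libraries. The libraries with vesicles lie between 0.375 and 0.462 and the Vehicle libraries between 0.489 and 0.517.

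SE-BDEV against CON-BDEV asked whether the source of the vesicles mattered. Of 10532 genes tested 0 passed with limma (0%), 509 of them (4.83%) had an unadjusted p under 0.05, and of the 9 members 0 passed, 2 of them having an unadjusted p under 0.05. H2-K1 averaged 131 ± 8.57 FPKM in SE-BDEV and 144 ± 8.13 FPKM in CON-BDEV (SD, n = 3 each), a log2 difference of -0.14 with a 95% interval of -0.26 to -0.02 before adjustment and a limma adjusted p of 0.991. H2-D1 averaged 323 ± 15.9 FPKM in SE-BDEV and 347 ± 7.85 FPKM in CON-BDEV, a log2 difference of -0.11 (95% interval -0.21 to -0.01, limma adjusted p of 0.991). The highest SE-BDEV library of H2-D1 lay below the lowest of CON-BDEV, and B2m was the one member with all SE-BDEV libraries above all CON-BDEV libraries, where 7.94% of all genes tested did not overlap in either direction (2.74% higher, 5.19% lower). B2m had a log2 difference of 0.06 with an interval of -0.03 to 0.15. For Tap2 the interval was -0.12 to 0.06, for Tapbp -0.16 to 0.07, for Cd74 -0.14 to 0.14, for Tap1 -0.21 to 0.13, for H2-Q4 -0.23 to 0.12 and for H2-T23 -0.36 to 0.16. The median log2 difference of the 9 was -0.04, against -0.0045 over all genes tested. H2-K1 thus passed against Vehicle in SE-BDEV and not in CON-BDEV, and H2-D1 the reverse, but the difference between the preparations passed for neither gene.

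Cd74 and H2-Aa stood apart from each other. Cd74 was at 225, 199 and 188 FPKM in SE-BDEV, 212, 209 and 189.7 FPKM in CON-BDEV, and 198, 195 and 206 FPKM in Vehicle. The groups overlapped, and the log2 fold change was 0.03 (95% interval -0.11 to 0.16) in SE-BDEV and 0.03 (-0.08 to 0.14) in CON-BDEV, each against Vehicle. H2-Aa was listed at 0 in all 6 libraries with vesicles, and in Vehicle at 0.0367, 0.0714 and 0 FPKM. With the longest annotated transcript and the estimated depth, the highest of these values stands for at most 7.70 fragments, and H2-Aa entered no test. Of 15 other class II genes in the table, 8 passed the filter and 5 were listed at 0 in all libraries, H2-Ab1, H2-Eb1, H2-Eb2, H2-Ea-ps and H2-Ob, as was Ciita, the master activator of class II genes. These names were chosen after their values were seen. A listed 0 may not mean that a gene is silent, since Hmgcs1, a sterol enzyme that cells commonly make, was also listed at 0 in 9 libraries. Hmgcs1 was not among the entries left out for a failed status. Whether any of these 0 values is a failed estimate was not tested.

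The other genes of the pathway were taken from 6 lists with 94 genes, of which 63 were tested. With SE-BDEV 7 of them rose and 0 fell (11.1% higher, against 6.76% of all genes tested), and with CON-BDEV 4 rose and 0 fell (6.35%, against 3.81%). Whether any count below is particular to its list was not tested, and the lists were chosen with earlier results of these data known.

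In the list of class I peptide supply and loading, 3 of 15 genes rose with SE-BDEV and 0 fell (median log2 fold change 0.05). Calr, calreticulin, a chaperone of the peptide loading complex, averaged 876 ± 45.6 FPKM in SE-BDEV and 689 ± 48.8 FPKM in Vehicle (SD, n = 3 each), a log2 fold change of 0.35 (limma adjusted p of 0.00567). Pdia3, the disulfide isomerase of the loading complex, averaged 395 ± 11.3 FPKM in SE-BDEV and 323 ± 20.1 FPKM in Vehicle (0.29, limma adjusted p of 0.00602), and Canx, the chaperone calnexin, averaged 155 ± 2.45 FPKM in SE-BDEV and 134 ± 6.29 FPKM in Vehicle (0.22, limma adjusted p of 0.0109). All 3 also fold other glycoproteins. Calr and Pdia3 passed without each library in turn, whereas Canx had a limma adjusted p of 0.0569 without Vehicle replicate 1. In the authors' deposited table q was 0.00509 for Calr, 0.0192 for Pdia3 and 0.119 for Canx. With CON-BDEV 2 of 15 rose and 0 fell (median 0.10). Calr averaged 886 ± 107 FPKM in CON-BDEV and 689 ± 48.8 FPKM in Vehicle (0.36, limma adjusted p of 0.0441), and Psme2, a subunit of the proteasome activator PA28, averaged 142 ± 5.32 FPKM in CON-BDEV and 125 ± 2.23 FPKM in Vehicle (0.19, limma adjusted p of 0.0346). Both calls held without CON-BDEV replicates 1 or 2 and were lost without CON-BDEV replicate 3 or any Vehicle replicate. The highest limma adjusted p was 0.163 for Calr (without Vehicle replicate 1) and 0.140 for Psme2 (without Vehicle replicate 2). With CON-BDEV the authors' deposited q was 0.00245 for Calr and 0.309 for Psme2.

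Of 22 other class I genes 9 were tested, and in both comparisons 1 rose and 0 fell (median log2 fold change -0.08 with SE-BDEV and 0.11 with CON-BDEV). That gene was Cd1d1, which presents lipids to NKT cells. It averaged 1.80 ± 0.286 FPKM in SE-BDEV, 2.05 ± 0.158 FPKM in CON-BDEV and 1.14 ± 0.0739 FPKM in Vehicle, log2 fold changes of 0.38 with SE-BDEV and 0.51 with CON-BDEV on the FPKM + 1 scale (limma adjusted p of 0.0299 and 0.0117), which understates a change at such levels. The authors' deposited tables gave 0.66 and 0.84 (q of 0.00509 and 0.00245). For SE-BDEV the call held without SE-BDEV replicate 1 and was lost without each other library (highest limma adjusted p 0.101, without Vehicle replicate 2), and for CON-BDEV it was lost without CON-BDEV replicate 3, Vehicle replicate 1 or Vehicle replicate 2 (highest 0.0553). In the list of other class II genes, 2 of 8 tested rose with SE-BDEV and 1 with CON-BDEV, and 0 fell (median 0.08 in both). Ifi30, the lysosomal thiol reductase that opens antigens, averaged 703 ± 3.21 FPKM in SE-BDEV, 734 ± 36.3 FPKM in CON-BDEV and 594 ± 19.0 FPKM in Vehicle (log2 fold changes 0.24 with SE-BDEV and 0.30 with CON-BDEV, limma adjusted p of 0.00336 and 0.0110). Its call held without each library in SE-BDEV and was lost in CON-BDEV without Vehicle replicates 1 or 2 (highest 0.0529). For Ifi30 the authors' deposited tables gave q of 0.0697 with SE-BDEV and 0.0166 with CON-BDEV. Ctss, cathepsin S, which cuts the invariant chain, averaged 723 ± 8.13 FPKM in SE-BDEV and 661 ± 10.96 FPKM in Vehicle (0.13, limma adjusted p of 0.0331). This call was lost in 6 of 6 fits with 1 library left out (highest 0.118, without Vehicle replicate 2). For Ctss the deposited q of the authors was 0.529.

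**Figure D4:**
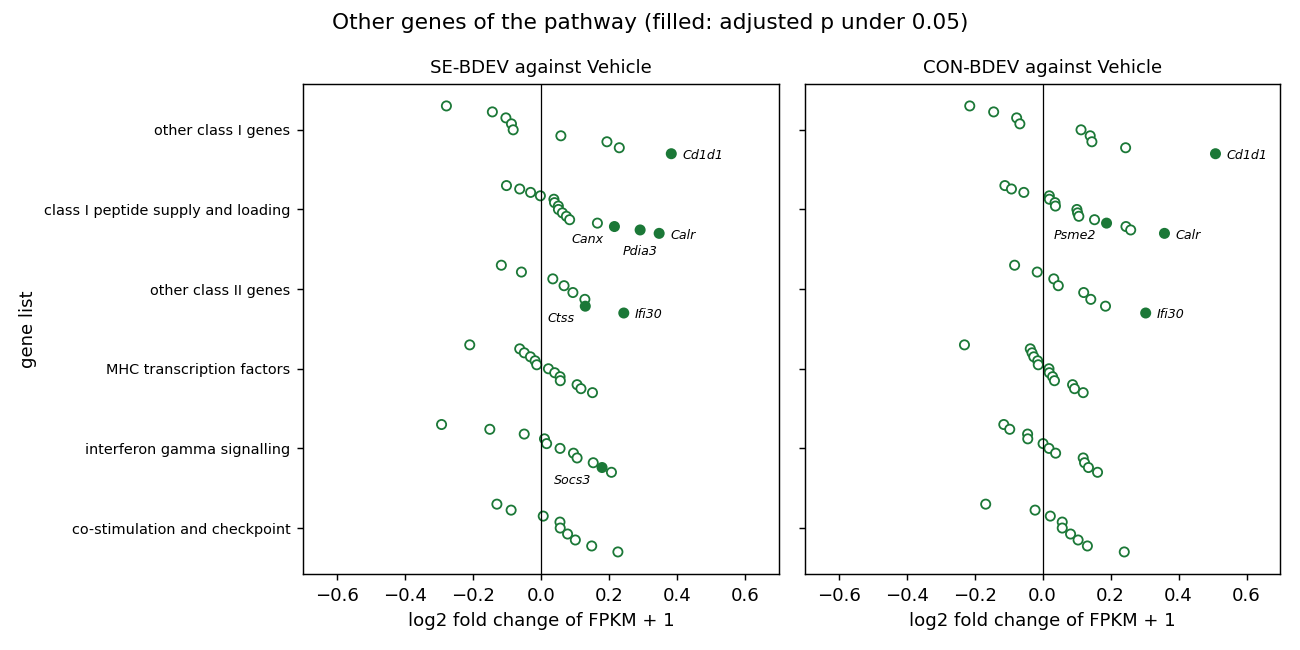
Log2 fold change of FPKM + 1 (horizontal axis) of each tested gene in the 6 other lists (vertical axis; height within a list only separates points), for SE-BDEV on the left and CON-BDEV on the right, each against Vehicle. Filled, named points passed an adjusted p of 0.05, and all 7 with SE-BDEV and all 4 with CON-BDEV lie on the higher side.

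The regulators of MHC transcription gave no calls. Of 13 genes tested in that list 0 passed in either comparison (median log2 fold change 0.02 in both), and the most abundant were Nfya, a subunit of the factor that binds CCAAT boxes (log2 fold change -0.01 with SE-BDEV and -0.04 with CON-BDEV), and Rela, an NF-kB subunit (0.02 with SE-BDEV and 0.03 with CON-BDEV). Of 11 genes of interferon gamma signalling 1 rose with SE-BDEV and 0 with CON-BDEV, and 0 fell in either (median 0.06 and 0.02). Socs3, a feedback inhibitor of cytokine receptors, averaged 14.9 ± 0.826 FPKM in SE-BDEV and 13.0 ± 0.251 FPKM in Vehicle (0.18, limma adjusted p of 0.0475). This call held without SE-BDEV replicate 1 and was lost without each other library (highest 0.160, without Vehicle replicate 1). For Socs3 the authors' deposited q was 0.280. With CON-BDEV the most abundant genes of that list, Jak1, a kinase of the interferon receptors, and Ifngr2, a receptor chain, had log2 fold changes of -0.04 and 0.00142. Of 9 co-stimulation and checkpoint genes 0 passed in either comparison (median 0.06 in both). Its most abundant genes were Cd83, at 0.15 with SE-BDEV and 0.10 with CON-BDEV, and Icam1, an adhesion molecule, at 0.06 and 0.08.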

How the data were processed

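Per the labels' protocols, RNA was polyA-selected and libraries kept strand. The submitters' processing notes name TopHat2, Cuffdiff and build mm9, with no versions. FPKM per gene and library were computed by the authors and deposited as a table for each vesicle group, both with the same Vehicle libraries. Per the file headers, the authors' Cuffdiff tables give a log2 fold change, a test score, a p-value and a q-value per gene. SE-BDEV values were divided by 1.00044 to join the tables. Entries with a failed status (2 in the CON-BDEV table, 1 in the SE-BDEV table) were left out.

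FPKM are not counts, so log2(FPKM + 1) was fitted with limma 3.58.1 in R 4.3.3 (empirical Bayes with a trend on the mean, 2-sided), keeping genes that averaged at least 1 FPKM. Each preparation was compared with Vehicle in its own table, and SE-BDEV with CON-BDEV over all 9 libraries. Adjustment was by the Benjamini-Hochberg method over all genes kept, with a threshold of 0.05. For 1 gene, permuting 3 libraries against 3 exactly cannot go under a p of 0.1. Depth was estimated from steps between the lowest FPKM values (under 0.05) and from 10 genes with 1 transcript of at least 4000 nt. The fits were tested on simulated data. Promoter windows (RefSeq, GRCm38.p6, with 8 of 10 members matched) were searched with Python 3.11.15 and aligned with Biopython 1.88, and 1 motif searched is not reported here.

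The members and gene lists were chosen with earlier results of these data known. All members are named. From each other list up to 4 genes past the threshold with the largest change are named or, where none passed, the 2 with the highest mean. Alternatives were a pseudocount of 0.1, no filter or a filter at 5 FPKM, quantile normalization, no trend, the replicate number or the library-name digit as a block, all 9 libraries in 1 fit, and each library left out.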

Additional observations from a re-analysis of the deposited data

How the results depend on the processing

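Of the members, 3 were called in SE-BDEV against Vehicle, 1 of them (H2-Q4) with no filter on low values and 1 to 3 with 1 library left out. In CON-BDEV against Vehicle 2 were called, 0 with no filter, 0 after quantile normalization, 0 without the trend, 1 with the library-name block (Tapbp), and 0 to 3 with 1 library left out. With the replicate block 1 was called there (H2-T23, limma adjusted p of 0.0354), where H2-D1 and Tapbp were not (0.0708 and 0.0669), and in SE-BDEV Tapbp was not (0.0556). Same-numbered libraries did not deviate together (correlations of same-numbered libraries from -0.25 to 0.12 for SE-BDEV and -0.07 to 0.18 for CON-BDEV with Vehicle). Of all genes, 1253 were called in SE-BDEV against Vehicle, 726 with no filter and 501 to 1311 with 1 library left out. In CON-BDEV 597 were called, 112 with no filter, 364 with the replicate block, 275 with the library-name block and 84 to 1067 with 1 library left out. In SE-BDEV against CON-BDEV 0 were called, 1 without the trend and 0 to 1 with 1 library left out. The cause of these shifts was not tested. Leaving out a library leaves fewer libraries to estimate the spread. The sign of no called member changed in any of these settings. For groups that do not overlap, leaving out a library cannot change it, and the filter and the trend leave the fold change as it was.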

Other observations

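The genes with the pattern most like the mean log2(FPKM + 1) of the 4 heavy chains were taken by Pearson's r over the 9 joined libraries among 10532 genes. They were Rilpl2 (r = 0.93), Lsm14b (0.92), Rpl35a (0.91), Bcl2l2 (0.91) and Snx24 (0.91). The mean is not a pattern common to the 4 chains, since over the same libraries r was 0.82 between H2-K1 and H2-Q4 and 0.56 between H2-D1 and H2-T23, but -0.32 between H2-K1 and H2-D1, -0.40 between H2-K1 and H2-T23, -0.43 between H2-D1 and H2-Q4 and -0.57 between H2-Q4 and H2-T23. All points share library, depth and normalization, and 3 groups lie among them, so these values are a description with no test. Rilpl2 averaged 99.6 FPKM in SE-BDEV, 115 FPKM in CON-BDEV and 108 FPKM in Vehicle, and Rpl35a, a ribosomal protein, 1143 FPKM in SE-BDEV, 1208 FPKM in CON-BDEV and 1185 FPKM in Vehicle.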
